A study of Mus musculus with 6 samples.

Results

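The protocadherins were followed in cultured mouse cerebellar granule neurons (CGNs) after inhibition of EZH2, the enzyme that places trimethylation on lysine 27 of histone H3 (H3K27me3). Members were all annotated genes whose symbol begins with Pcdh, with pseudogene and opposite-strand entries left out by name, and no measured value entered the choice. This gave 69 of the 55341 genes listed, of which 57 belong to the Pcdha (13 genes), Pcdhb (22 genes) and Pcdhg (22 genes) clusters and 12 are non-clustered. There were 6 poly(A) RNA-seq libraries, 3 from CGNs given DMSO, the vehicle, and 3 from CGNs given GSK-126, a small-molecule inhibitor of EZH2. Both groups came, per the study's methods, from CD1-IGS mice on postnatal days 6 to 8, whose granule neuron precursors were enriched on Percoll, plated, and exposed to cytosine arabinoside to stop division of non-neuronal cells. A replicate in culture was defined there as CGNs of cerebella pooled over litters, so that a library stands for a pool of animals and not for 1 animal. Dose and time of treatment are absent from the labels, which named cerebellum as the source although the titles named CGNs. The methods describe a single addition of inhibitor on day 1 or on day 3 in culture with harvest on day 5, and a code for day 1 stands in the names of the deposited tables, but no label states which schedule these libraries followed.

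Protocadherins form the largest group of the cadherin superfamily, single-pass membrane proteins whose extracellular cadherin repeats bind the same protein on a facing cell. In the clustered loci each isoform has its own promoter and a large first exon that encodes the whole ectodomain. Pcdha and Pcdhg first exons are spliced to constant exons common to their cluster, whereas Pcdhb genes have none. Most clustered promoters are chosen stochastically in a neuron, through DNA methylation and looping by CTCF and cohesin, which gives the cell a surface identity used in dendrite self-avoidance and wiring, while the C-type isoforms at the ends of the Pcdha and Pcdhg clusters are less subject to that choice. The non-clustered genes are scattered over the genome, each with its own promoter, and their delta-1 and delta-2 families act in axon growth, sorting and synapse formation.

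Library totals ran from 8058760 to 12047837 counts over genes. Levels are given as CPM, counts brought to a common library size with TMM factors, and fold changes come from the quasi-likelihood F test of edgeR fitted to 16343 genes with the replicate number as a block, with p-values adjusted by the Benjamini-Hochberg method over those genes. In that fit 2.23% of all genes were called higher under GSK-126 and 1.42% lower at an adjusted p of 0.05, whereas the fit without the block called 0% of genes. Granule neuron markers were present in every library, with Zic1, a granule lineage transcription factor, at 1502 ± 199 CPM (SD, n = 3) with DMSO. Transcripts typical of other cells were present too, and the fibroblast collagen gene Col1a1 stood at 2600 ± 514 CPM (SD, n = 3) in the same libraries.

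The non-clustered Pcdh19 was the 1 protocadherin higher under GSK-126 past the threshold, by 1.81-fold. None of the 53 clustered genes tested passed it in either direction. Of the 69 members, 64 had enough counts to be tested, namely 11 Pcdha, 21 Pcdhb, 21 Pcdhg and 11 non-clustered genes. The 5 others were Pcdh12, Pcdha4, Pcdha8, Pcdhb1 and Pcdhgb8, with at most 40 counts in any library. Against 2.23% of all genes, 1 of 64 protocadherins was called higher, and against 1.42%, 0 were called lower, so that the calls over the family were near the background share.

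Pcdh19 encodes a delta-2 protocadherin known for its role in an X-linked epilepsy, and lies on the minus strand of chrX:133582860-133688987 (GRCm38). Its counts were 70, 152 and 99 in DMSO replicates 1, 2 and 3, and 203, 231 and 204 in the corresponding GSK-126 replicates. On the CPM scale these were 8.05, 18.9 and 11.7 with DMSO against 16.9, 27.8 and 23.2 with GSK-126. Each treated library lay above the DMSO library of its own number, but the groups overlapped, since DMSO replicate 2 was higher than GSK-126 replicate 1. Mean levels were 12.9 ± 5.55 and 22.6 ± 5.47 CPM (SD, n = 3). By edgeR the log2 change was 0.86 (SE 0.184, adjusted p = 0.0289), with a 95% interval of 1.37-fold to 2.40-fold. The call rested on the pairing, since without the replicate block the change was 0.81 (edgeR adjusted p = 0.824), and it was lost without replicate 2 (1.04, adjusted p = 0.0583) or replicate 3 (0.80, adjusted p = 0.138). In a bulk sample, a change in the share of cells that express a gene and one in its RNA per cell cannot be told apart.

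Marker lists of other cell types differed between the groups in the same libraries. The summed CPM of 8 granule neuron markers ran from 3690 to 5377 with DMSO and from 2580 to 4058 with GSK-126, lower in 3 of 3 pairs, and 5 of the 8 were called lower. Zic1 and Zic2 leaned lower, whereas Pax6 had a log2 fold change of 0.04. The 5 mural cell markers summed to between 450 and 732 CPM with DMSO and between 797 and 1021 with GSK-126, higher in 3 of 3 pairs, with Pdgfrb and Acta2 called higher of 4 tested. The 5 fibroblast markers went from between 6678 and 8743 to between 8776 and 9723 CPM, also higher in 3 of 3 pairs, with Col1a1 called higher. Oligodendrocyte lineage sums (7 markers, 423 to 644 with DMSO against 485 to 774 CPM) and microglial sums (6 markers, 170 to 270 against 193 to 428 CPM) were higher in 3 of 3 pairs, with Cspg4 called higher among the former and 0 called among the latter. Pdgfra and Sox10 leaned lower (log2 fold change -0.21 and -0.10), as did the microglial Aif1 and Cx3cr1 (-0.08 and -0.02). The other members of both lists leaned higher, and C1qa had the largest microglial value (0.66). GABAergic neuron sums (6 markers, 193 to 261 against 169 to 195 CPM) were lower in 3 of 3 pairs, with Slc32a1 called lower. Gad1, Gad2 and Pax2 leaned lower, whereas Pvalb and Calb1 leaned higher (log2 fold change 0.35 each). Endothelial sums (7 markers) ran from 60.2 to 88.2 CPM with DMSO and from 66.9 to 87.2 with GSK-126, with Flt1 called higher of 6 tested. Pecam1, Tek and Esam leaned higher, whereas Cdh5 and Kdr had log2 fold changes of -0.30 and -0.01. Astrocyte sums (6 markers) ran from 2168 to 6855 and from 2273 to 7105 CPM with 0 called. No marker was at 0 in every library. The part of these shifts in the Pcdh19 result, or in any other protocadherin value given here, was not tested.

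The other delta-2 genes did not pass the threshold. Pcdh17, a gene of axon sorting and presynaptic assembly, gave 50.4, 24.8 and 42.3 CPM with DMSO against 52.7, 45.1 and 51.4 with GSK-126. The treated libraries were higher in 3 of 3 pairs and the widest gap was in replicate 2, where the DMSO library was low. Its fitted log2 change was 0.39 (SE 0.158, edgeR adjusted p = 0.242). Pcdh10, which acts in axon outgrowth, was higher in 3 of 3 pairs by a small amount, from 37.3 ± 9.53 to 41.9 ± 11.4 CPM (SD, n = 3; log2 fold change 0.16), with an interval of 0.922-fold to 1.36-fold. Pcdh18 stood at 16.1 ± 1.71 and 17.0 ± 3.67 CPM (SD, n = 3) and its fitted log2 change was 0.06. Pcdh8, whose product arcadlin is induced by neuronal activity, varied more between replicates than between groups, at 63, 12 and 21 counts in the DMSO libraries against 48, 10 and 34 in the treated ones. Replicate 2 was the lowest for Pcdh8 in both groups.

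Among the remaining non-clustered genes Pcdh20 had the largest fitted change of the family. Its counts were 24, 17 and 16 in the DMSO libraries and 82, 31 and 30 in the treated ones, or 2.76, 2.12 and 1.89 against 6.81, 3.72 and 3.41 CPM. Every treated library was above every DMSO library, a separation in this direction that 5.43% of all tested genes showed. Its fitted log2 change was 1.01 (SE 0.358, edgeR adjusted p = 0.177) with an interval of 1.16-fold to 3.46-fold, and did not pass the threshold. Pcdh15, a component of the hair cell tip link, was higher in 3 of 3 pairs (2.05 ± 1.47 and 3.65 ± 2.16 CPM, SD, n = 3). Its fitted log2 change was 0.88, with an adjusted p of 0.319 in edgeR. Pcdh12, a protocadherin of endothelial cells, had 6, 1 and 11 counts in the DMSO libraries against 3, 0 and 2 in the treated ones, which is too few for a fold change.

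Because H3K27me3 gathers at promoters rich in CG dinucleotides, the 250 bases before the RefSeq start were compared among 9 of the non-clustered genes. Windows of Pcdh1, Pcdh11x and Pcdh12 were not examined, and the counts over the 9 do not cover these genes. For 6 of the 9 a window lay outside the GENCODE gene model. The windows of Pcdh15, Pcdh7 and Pcdh18 lay inside it by 250, 114 and 9 bases, so that of Pcdh15 was wholly within the gene. The windows of Pcdh19, which passed the test, of Pcdh20, with the largest fitted change, and of Pcdh9, which was lower in 3 of 3 pairs, are printed 5′ to 3′ on the gene's strand (minus for each, GRCm38.p6), with every CG in capitals. They lie at chrX:133688994-133689243, chr14:88471397-88471646 and chr14:93890680-93890929.
Pcdh19: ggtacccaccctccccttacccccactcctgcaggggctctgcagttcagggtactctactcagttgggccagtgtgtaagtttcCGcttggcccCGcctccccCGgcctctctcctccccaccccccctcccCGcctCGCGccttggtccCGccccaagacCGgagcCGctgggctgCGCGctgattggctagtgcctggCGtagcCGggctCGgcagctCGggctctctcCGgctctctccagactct
Pcdh20: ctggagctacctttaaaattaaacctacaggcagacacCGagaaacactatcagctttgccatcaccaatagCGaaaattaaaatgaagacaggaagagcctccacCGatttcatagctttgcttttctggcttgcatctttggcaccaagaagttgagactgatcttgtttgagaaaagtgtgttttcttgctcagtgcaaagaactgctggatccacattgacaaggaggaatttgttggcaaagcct
Pcdh9: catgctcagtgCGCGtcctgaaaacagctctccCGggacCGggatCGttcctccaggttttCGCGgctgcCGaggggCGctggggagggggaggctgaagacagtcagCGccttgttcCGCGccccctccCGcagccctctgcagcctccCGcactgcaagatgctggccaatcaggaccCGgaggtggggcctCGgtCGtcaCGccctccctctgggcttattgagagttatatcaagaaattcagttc
The Pcdh19 window held 16 CG and was 69.2% G or C, and 25.4% of 32851 RefSeq windows of this length held at least as many. The Pcdh9 window held 18 CG and was 63.6% G or C, and 21.7% of all windows held at least as many. The Pcdh20 window held 3 CG and was 42.4% G or C, below the medians of 6 CG and 52.4% over all windows. Of the 9 genes with a window, 7 were above the median CG count. The windows of Pcdh18, Pcdh10 and Pcdh17, none of which passed the test, held 23, 22 and 21 CG, more than that of Pcdh19. Those of Pcdh8, Pcdh7 and Pcdh15 held 11, 7 and 6. The letters CAGCAGG (sought on both strands) stood in the Pcdh18 window and in no other of the 9, against 8.44% of all windows. These are counts of letters, and H3K27me3 at these windows was not measured in the RNA libraries.

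The delta-1 genes leaned the other way, with 3 of 4 lower under GSK-126 in 3 of 3 pairs and none past the threshold. Pcdh1 (chr18:38185914-38212053), an adhesion gene shared by epithelia and brain, gave 117, 125 and 125 CPM with DMSO and 101, 102 and 99.8 with GSK-126. All treated libraries were below all DMSO libraries, as for 5.44% of all tested genes, and the groups were tight (122 ± 4.57 and 101 ± 1.22 CPM, SD, n = 3). The log2 fold change of -0.28 (SE 0.104) had an edgeR adjusted p of 0.207. Pcdh11x, an X-linked gene, gave 7.02, 14.2 and 5.77 CPM with DMSO and 2.41, 10.2 and 4.09 with GSK-126. Replicate 2 was the highest in both groups, so the groups overlapped although the treated library was lower in each pair (log2 fold change -0.81, SE 0.291, edgeR adjusted p = 0.185). Pcdh9 stood at 58.3 ± 8.62 and 52.3 ± 5.72 CPM (SD, n = 3) and its fitted log2 change was -0.15.

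Pcdh7, which binds protein phosphatase 1 as other delta-1 members do, was the delta-1 gene that was higher in 3 of 3 pairs. It gave 86.9, 108 and 87.3 CPM with DMSO and 112, 133 and 107 with GSK-126. The groups overlapped, since DMSO replicate 2 was just above GSK-126 replicate 3. Its fitted log2 change was 0.32 (SE 0.104, edgeR adjusted p = 0.139). Of its exon bases, 21.1% lie opposite 4932441J04Rik, which had 230 to 427 counts per library. The strand setting of the count is not given in the sources used here. Whether the count kept reads of a gene apart from those of a partner on the opposite strand is therefore not known.

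**Figure D1:**
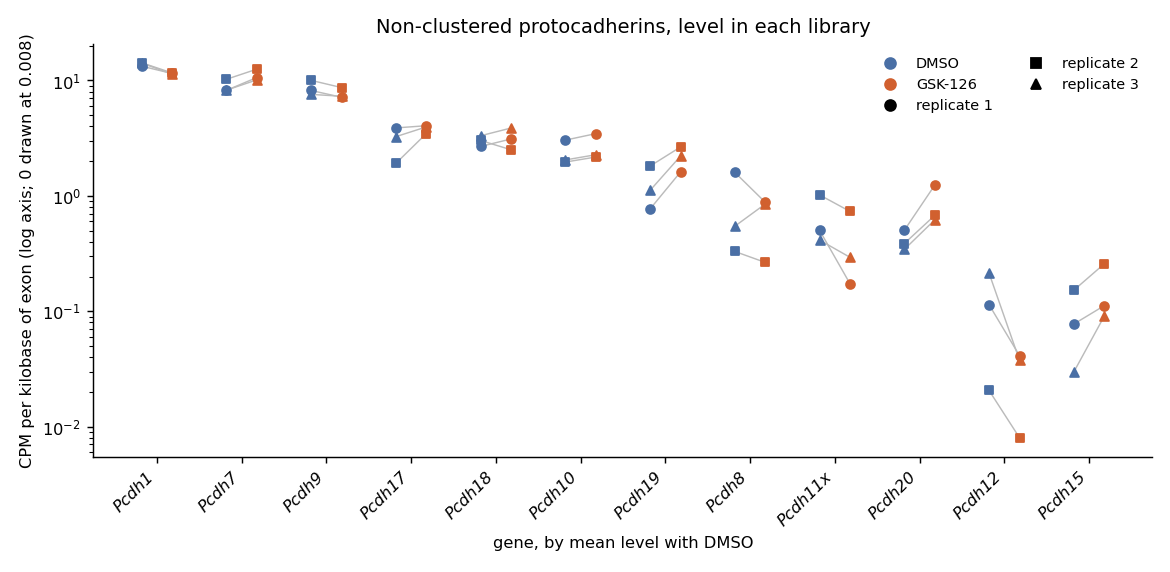
Level of each non-clustered protocadherin in every library, as CPM per kilobase of exon on a log axis, with a marker shape per replicate number and grey lines joining the DMSO (blue) and GSK-126 (orange) libraries of that number. Pcdh19 rises in each of the 3 pairs while its groups overlap, and the Pcdh1 and Pcdh20 groups stand apart in opposite directions.

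Levels were compared between genes as CPM per kilobase of exon. Pcdh1 was the highest of the non-clustered genes with DMSO at 13.9 ± 0.520, followed by Pcdh7 (8.89 ± 1.16) and Pcdh9 (8.59 ± 1.27, SD, n = 3 each). A middle set followed, with Pcdh17 and Pcdh18 both at 3.01 and Pcdh10 at 2.35 CPM per kilobase. Pcdh19 stood at 1.23, Pcdh8 at 0.824, Pcdh11x at 0.645 and Pcdh20 at 0.411, and Pcdh12 and Pcdh15 closed the order at 0.116 and 0.0864. In 7 of the 11 neighbouring pairs of this order the DMSO ranges overlapped, so that the order is resolved between Pcdh1 and Pcdh7, Pcdh9 and Pcdh17, Pcdh10 and Pcdh19, and Pcdh20 and Pcdh12. Pcdh19, which passed the threshold, and Pcdh20, with the largest fitted change, were among the weakly expressed members, and with GSK-126 they stood at 2.16 and 0.846 CPM per kilobase.

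Over the 11 non-clustered genes tested, 1 was called higher and 0 lower, and at an unadjusted p under 0.05 the counts were 4 higher (Pcdh7, Pcdh17, Pcdh19 and Pcdh20) and 2 lower (Pcdh1 and Pcdh11x). Over all genes, 2.23% were called higher and 1.42% lower, and 9.28% were higher and 7.46% lower at the unadjusted threshold. The median log2 fold change was 0.16, with a range from -0.81 to 1.01, beside a median of -0.00 over all genes tested. The direction was the same in 3 of 3 pairs for 9 of the 11 genes (81.8%, 6 higher and 3 lower), against 39.0% of all genes. An absolute log2 change over 0.5 was seen in 4 genes (36.4%), against 14.2% of all genes. Their summed CPM was nearly constant, at 400, 414 and 380 with DMSO and 419, 436 and 402 with GSK-126, with the abundant Pcdh1 and Pcdh7 differing in opposite directions.

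The clustered genes, which lie together on chr18, had 0 calls in either direction by edgeR, and 0 by DESeq2. DESeq2 gave no adjusted p to several weakly expressed members, among them Pcdha1, Pcdha7, Pcdhb4 and Pcdhgb1, and so could not call these. At an unadjusted p under 0.05 there were 0 higher and 1 lower (Pcdhb21) of 53 tested, against 9.28% and 7.46% of all genes. The median log2 fold change was -0.03 with a range from -0.65 to 0.66. For 42 of the 53 genes (79.2%) the 95% interval excluded a change beyond 2-fold in either direction, as it did for 77.2% of all genes, so that changes under this size remain undetermined for most and larger ones for 11. All 3 pairs moved the same way in 16 genes (30.2%), 8 higher and 8 lower. The median over the cluster genes differed in sign between pairs, at -0.26, 0.21 and -0.05 for replicates 1, 2 and 3.

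**Figure D2:**
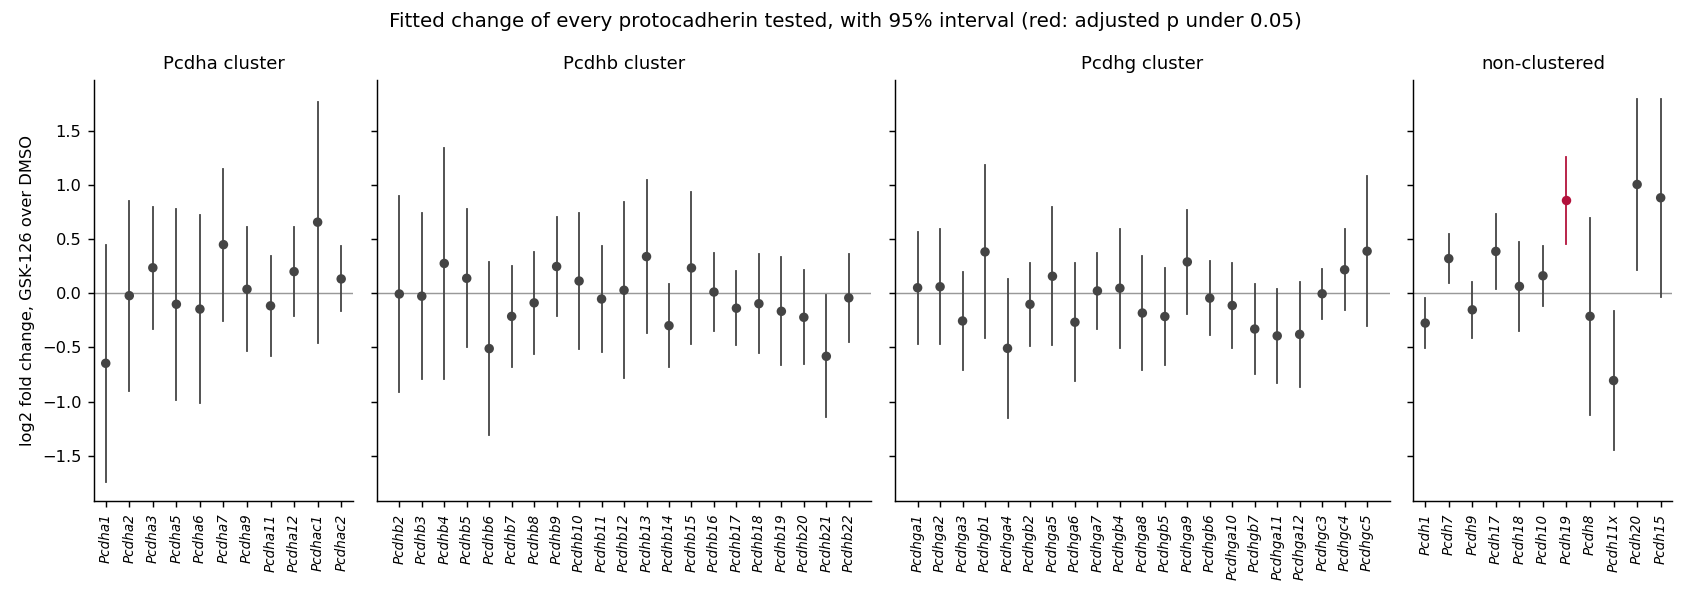
Fitted log2 fold change (GSK-126 over DMSO) of the 64 protocadherins tested, with 95% intervals, in genomic order for the 3 clusters and by level for the non-clustered genes. The intervals of the clustered genes straddle 0 with the exception of Pcdhb21, and Pcdh19 is the 1 gene drawn in red for an adjusted p under 0.05.

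Counts of Pcdha and Pcdhg genes have to be read with their shared exons in mind. In the annotation, between 29.2% and 91.4% of the exon bases of a Pcdha gene (median 53.6%) and between 31.5% and 66.8% of those of a Pcdhg gene (median 44.7%) also belong to another gene on the same strand. For Pcdhb genes the share ran from 0% to 9.67%, and for the non-clustered genes it was 0%. Reads over more than 1 gene were recorded as ambiguous and assigned to none, and made up 0.913% to 1.11% of the reads of a library. The values of Pcdha and Pcdhg genes therefore rest on their unshared exons, and levels are given per kilobase of exon not shared on the same strand. The read-through models Gm37013, Gm37388, Gm38182 and Gm42416, which lie over exons of these genes, had 0 counts in all 6 libraries. Each has 0 exon bases free of another gene on the same strand. Their counts of 0 therefore follow from the counting rule and do not show whether they are transcribed.

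In the Pcdha cluster, 6 of 11 genes had a positive and 5 a negative log2 fold change, with a median of 0.04. The C-type gene Pcdhac2 (chr18:37143503-37187657), which keeps serotonergic axons apart, was the most abundant at 11.8 CPM per kilobase over the 6 libraries and took 32.1% to 37.7% of the counts of the cluster. It gave 28.2, 36.4 and 37.4 CPM with DMSO and 31.1, 44.3 and 36.6 with GSK-126, so the groups overlapped (log2 fold change 0.13, SE 0.137). Pcdha12 and Pcdha3 followed at 6.39 and 2.69 CPM per kilobase, with log2 fold changes of 0.20 and 0.24. The extremes were Pcdha1 at -0.65 (1.89 ± 1.05 and 1.18 ± 0.591 CPM) and the C-type Pcdhac1 at 0.66 (1.27 ± 0.132 and 2.12 ± 0.995 CPM, SD, n = 3), both weakly expressed and with an edgeR adjusted p of 0.575. For Pcdhac1 the mean rested on GSK-126 replicate 2, at 3.24 CPM against 1.74 and 1.36 in the other replicates.

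Pcdhb genes, whose whole protein is encoded without the constant exons, gave 8 positive and 13 negative log2 fold changes with a median of -0.04. Pcdhb20, Pcdhb17 and Pcdhb22 were the most abundant at 5.60, 5.45 and 4.08 CPM per kilobase, with log2 fold changes of -0.22, -0.14 and -0.04. Pcdhb17 took 10.03% to 11.4% of the counts of the cluster, so no gene dominated it. The lowest log2 fold change was that of Pcdhb21 (chr18:37513621-37518325), with 9.32, 9.60 and 10.3 CPM with DMSO and 4.49, 8.41 and 7.15 with GSK-126. All treated libraries lay below all DMSO libraries, as for 5.44% of all tested genes, and among the 53 clustered genes tested Pcdhb21 was the 1 such gene. The log2 fold change of -0.58 (SE 0.256) had an unadjusted p of 0.0435 and an adjusted p of 0.281 in edgeR. The highest was Pcdhb13 at 0.34, where the DMSO range of 3.45 to 6.11 CPM overlapped the treated range of 3.75 to 6.65. Level followed position in this cluster more than in the others, with a Spearman's rho of 0.65 between CPM per kilobase and gene order from the 5′ end over 22 genes, beside 0.40 over 13 Pcdha and 0.13 over 22 Pcdhg genes. These are descriptions over genes measured in the same 6 libraries.

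The Pcdhg cluster held the most abundant protocadherin of all 69, Pcdhgc3 (chr18:37806364-37841873), a C-type isoform that promotes dendrite branching. It stood at 68.1 CPM per kilobase over the 6 libraries and took 40.7% to 53.1% of the counts of the cluster. Its levels were 273, 202 and 215 CPM with DMSO and 276, 180 and 236 with GSK-126. Replicate 1 was highest and replicate 2 lowest in both groups, and the fitted change was -0.00 (SE 0.106), with an interval from 0.849-fold to 1.17-fold. Opposite its exons lies BC037039, over 28.4% of their bases, with 1108 to 2341 counts per library beside 1497 to 3322 for Pcdhgc3. As for Pcdh7, whether reads of the gene and of this partner were kept apart is not known. Pcdhgb6 and Pcdhgb7 followed at 10.6 and 8.08 CPM per kilobase, with log2 fold changes of -0.04 and -0.33. Pcdhgc4, the isoform needed for neuronal survival, gave 18.1 ± 2.01 and 21.1 ± 2.06 CPM (SD, n = 3). Its fitted log2 change was 0.22, with an interval from 0.897-fold to 1.51-fold.

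Of the 21 Pcdhg genes tested, 9 had a positive and 12 a negative log2 fold change, with a median of -0.04. The lowest was Pcdhga4 at -0.51 (5.64, 7.60 and 8.96 CPM with DMSO against 5.98, 4.08 and 5.34 with GSK-126) and the highest was the C-type Pcdhgc5 at 0.39 (4.95, 6.23 and 9.43 against 12.04, 4.69 and 10.9 CPM). The groups overlapped for each gene, with 1 pair going against the other two. The 5 C-type genes of both clusters had a median log2 fold change of 0.22, 4 of them positive, and none was called. Pcdhga10 had 0 exon bases free of another gene on either strand, yet 108 to 212 counts per library. With reads over more than 1 gene assigned to none, a count blind to strand would give it no counts under these exon models. The annotation the authors counted with may differ from these models. Pcdhgb8, annotated as a polymorphic pseudogene, reached 0, 4 and 40 counts in the DMSO libraries against 11, 4 and 35 in the treated ones, so that replicate 3 was the highest in both groups.

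**Figure D3:**
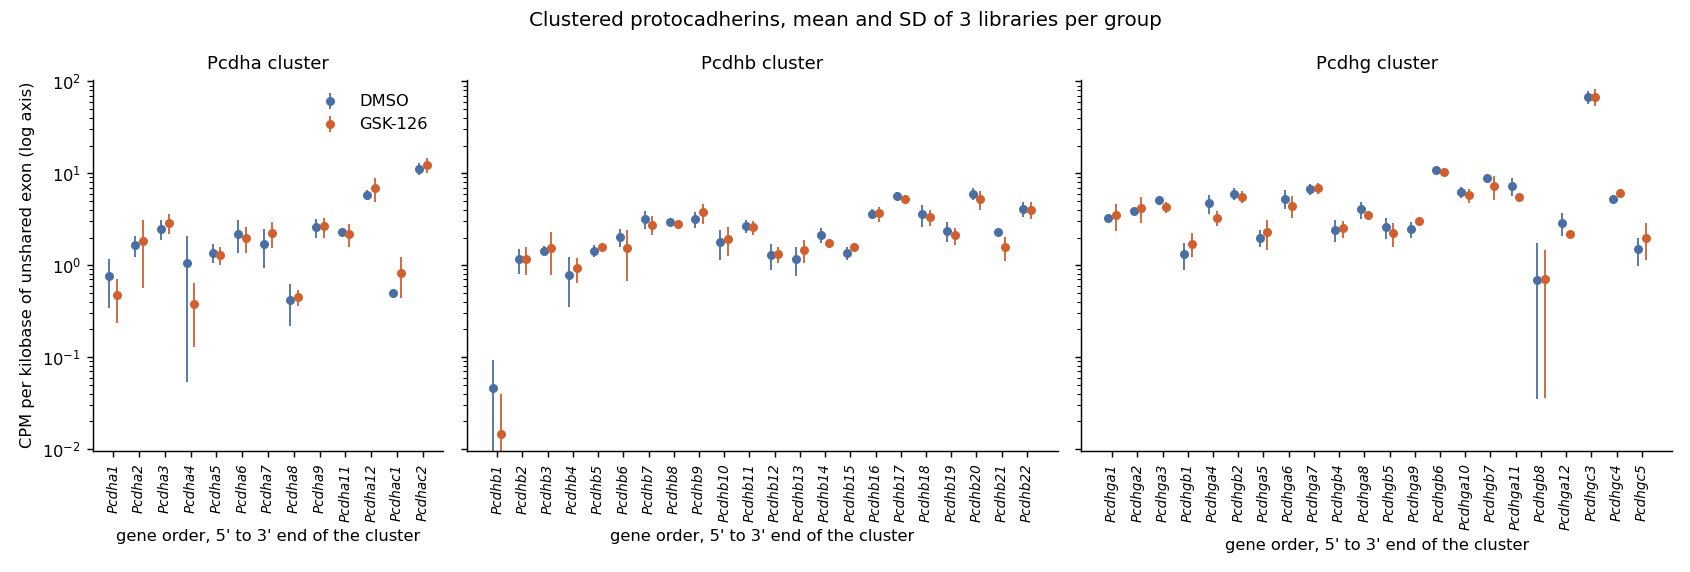
Mean level (points) and SD (bars, n = 3) of every clustered protocadherin with DMSO (blue) and GSK-126 (orange), as CPM per kilobase of exon not shared on the same strand, on a log axis, in gene order from the 5′ end. Lower bars that reach to 0 or below are cut at 5% of the mean or at the axis. Pcdhgc3 stands above all others at 68.1 CPM per kilobase, and the paired points of most genes lie within their bars.

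The sum over a cluster does not depend on how assigned reads split among neighbouring genes. Pcdha sums were 87.9, 105 and 102 CPM with DMSO and 87.9, 131 and 97.0 with GSK-126. Pcdhb sums were 262, 241 and 217 CPM against 200, 273 and 205, and Pcdhg sums were 554, 450 and 485 against 519, 442 and 488. In each of the clusters the pairs moved in different directions, and the Pcdhg ratio stayed between -0.09 and 0.01 on the log2 scale. The non-clustered ratio was 0.07, 0.07 and 0.08 in the 3 pairs. No p-value is given for these sums.

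**Figure D4:**
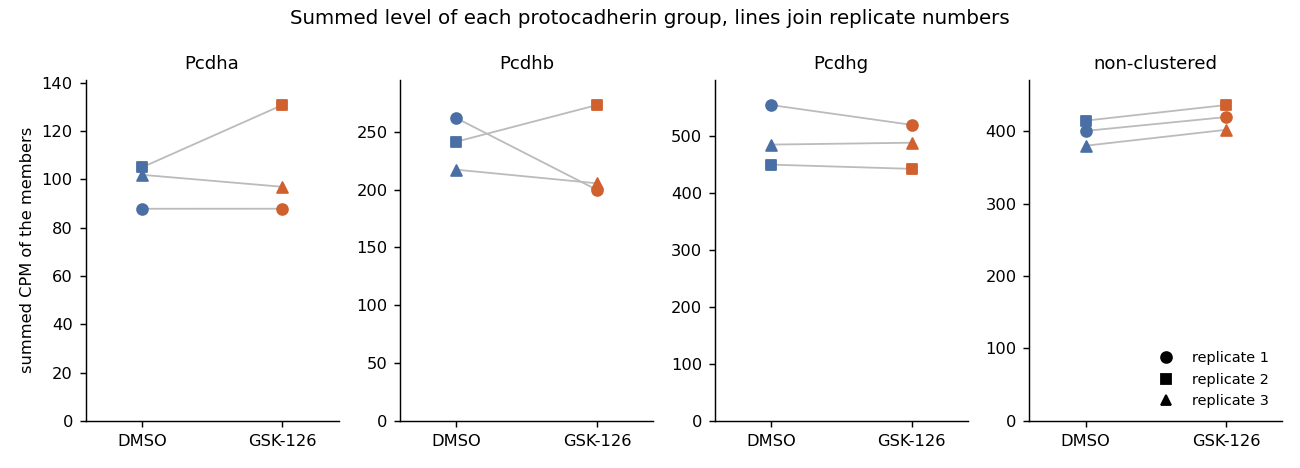
Summed CPM of the members of each protocadherin group in every library, with linear axes from 0 that differ between panels, a marker shape per replicate number and lines joining the libraries of a number. Replicate 2 is higher with GSK-126 in the Pcdha and Pcdhb panels while replicate 1 is lower in the Pcdhb panel, and the non-clustered lines run parallel.

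The clustered and non-clustered genes were set side by side by the spread of their fitted changes. The median absolute log2 fold change was 0.32 for the 11 non-clustered and 0.17 for the 53 clustered genes, beside 0.19 over all genes. The median SE was 0.184 for the non-clustered, 0.237 for the clustered and 0.168 for all genes, so the narrower spread of the clustered genes did not come with a smaller error. The difference between the groups of genes was not tested.

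Genes that choose and serve the protocadherins showed no call. Of 18 regulators of the clustered promoters, 0 were called higher and 0 lower (1 and 4 at an unadjusted p under 0.05), with a median log2 fold change of -0.10. The shares over all genes were 2.23% and 1.42% called, and 9.28% and 7.46% at the unadjusted threshold, for comparison with this list and the next. Ctcf, whose product loops the promoters to their enhancer, stood at 118 ± 11.6 CPM with DMSO and 105 ± 15.4 with GSK-126, and Rad21, a cohesin subunit, at 219 ± 3.26 and 196 ± 13.01 CPM (SD, n = 3). Both were lower in 3 of 3 pairs, with log2 fold changes of -0.18 and -0.17 and edgeR adjusted p of 0.462 and 0.456. Smchd1, which silences the clusters together with DNA methylation, had a log2 fold change of 0.04. Of 20 partners, effectors and processing enzymes, 19 were tested and 0 were called in either direction (2 higher and 1 lower at an unadjusted p under 0.05). Adam10, which sheds protocadherin ectodomains at the membrane, had a log2 fold change of -0.12, and Wasf1, the actin regulator bound by several protocadherins, had a value of -0.22.

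Calls were found among other cadherins. Of 19 classical and type II cadherins, 3 were called lower, against 1.42% of all genes, and 0 higher, with a median log2 fold change of -0.06. Cdh15, the M-cadherin of granule neurons, was at 9.09, 21.9 and 10.6 CPM with DMSO and 1.33, 7.69 and 2.04 with GSK-126 (log2 fold change -2.12, SE 0.294, edgeR adjusted p = 0.00451). Each pair fell, and the treated libraries were all below the DMSO libraries. Cdh22 fell by 1.05 on the log2 scale (edgeR adjusted p = 0.00245) and Cdh7 by 0.56 (adjusted p = 0.0460), both lower in 3 of 3 pairs. The summed granule neuron markers were also lower in 3 of 3 pairs of these libraries, with 5 of 8 called lower, and their part in the values of these cadherins was not tested. Of 12 Fat, Dachsous, flamingo and calsyntenin genes, 11 were tested and 1, the postsynaptic calsyntenin Clstn2, was called higher (1.22, SE 0.187, edgeR adjusted p = 0.00707), against 2.23% of all genes. Without the block these 4 genes had adjusted p-values between 0.465 and 0.825.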

How the data were processed

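Each library had 1 deposited table of raw counts by gene, which the authors made from paired-end reads of poly(A)-enriched RNA by trimming, alignment to mm10 (GRCm38) and counting over exons with HTSeq. The submitters' processing notes name Trimmomatic 0.38 and STAR 2.7.2b. The strand setting is not given in the sources used here. The 5 summary entries that name no gene were left aside: reads over no feature made up 44.8% to 46.7%, multiply aligned reads 9.54% to 10.4% and reads assigned to genes 39.1% to 41.6% of a library. Coordinates and exon overlaps came from GENCODE M21 (GRCm38), and promoter windows from RefSeq (GRCm38.p6).

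Genes were filtered with filterByExpr by group and tested in R 4.3.3 with edgeR 4.0.16, using its quasi-likelihood F test (legacy=TRUE in glmQLFit, TMM factors, treatment plus replicate number as a block). The study's methods name DESeq2 for read-count normalization and give no model terms. The numbers were checked for pairing by correlating deviations from the group means between the groups. The correlations were 0.35, 0.50 and 0.52 for replicates 1, 2 and 3, and the block was kept. For the 6 combinations of different numbers they ran from -0.41 to -0.01. Deviations cancel out within a group, so negative values there follow from the positive ones and add no separate evidence. DESeq2 1.42.0 with the block, the fit without it, relative log expression factors, no filter and leaving out each pair of libraries served as alternatives. The test was tried on simulated counts with known changes. Ratios within a pair used log2 CPM with a prior count of 2, and a count of 3, the floor, was 0.249 to 0.374 CPM. Floors and intervals cover counting error only, apart from the 95% intervals of fold changes, which rest on the fitted spread. No pair of libraries agreed within sampling noise (lowest chi-square per degree of freedom 9.98).

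All non-clustered genes are named. Of the clustered genes the text names any called, the 3 with the highest level and both extremes of fold change in each cluster, and the C-type genes. Pcdhga10 and the genes below the filter were named after their values were seen. Of the other lists, called members and up to 3 central ones are named. The members and lists were chosen with earlier results of these data known.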

Additional observations from a re-analysis of the deposited data

Results flagged for a closer look

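One quantity outside the gene comparison differed between the groups. The share of reads that overlapped more than 1 gene and were assigned to none, to which reads from the shared Pcdha and Pcdhg exons can contribute, was 0.977% ± 0.0578 in the DMSO libraries and 1.09% ± 0.0139 in the treated libraries (SD, n = 3). It was 0.1165 percentage points higher with GSK-126 and higher in 3 of 3 pairs. The exact permutation test (two-sided), which does not use the pairing, gave p = 0.1, the smallest that this test can give with 3 libraries against 3. The genes behind these reads are not recorded in the tables, and the part of the protocadherin clusters in the difference was not tested.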

How the results depend on the processing

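The count of calls among the clustered genes was 0 under all 7 alternatives. The fit without the block called 0 of all genes, so its value says nothing particular about the clustered ones. DESeq2 gave several clustered genes no adjusted p, and these could not be called in it. The 1 call among the non-clustered genes, Pcdh19, held under 4 of 7 (DESeq2, relative log expression factors, no filter, without replicate 1) with log2 fold changes from 0.76 to 1.04 over the 7. It became 0 without the replicate block, and the count ran from 0 to 1 when single pairs were left out, with adjusted p from 0.000843 to 0.824 over the alternatives. Over all genes, 597 calls (365 higher, 232 lower) became 0 without the block (0 higher, 0 lower, with 981 genes at an unadjusted p under 0.05 against 2735 with it) and 1136 without the filter (708 higher, 428 lower). Leaving out single pairs gave 178 to 704 calls (125 to 396 higher, 53 to 308 lower), lowest without replicate 2. The median log2 fold change of the non-clustered genes ran from 0.17 to 0.25 when pairs were left out, with 0.25 without replicate 1. That of the Pcdhb genes ran from -0.23 (without replicate 2) to 0.05 (without replicate 1). The sign of the fold change was kept under all alternatives by 6 of 11 Pcdha, 10 of 21 Pcdhb, 13 of 21 Pcdhg and 9 of 11 non-clustered genes. With levels per whole exon, or, as chosen after seeing the data, per exon unshared on either strand, 2 of the 3 highest Pcdha genes remained, and 2 of 3 Pcdhg genes under the latter. Genes of few counts such as Pcdh20 and Pcdh15 had wide intervals.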
